A study of Mus musculus with 12 samples.

Results

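Hematopoietic stem and progenitor cells (HSPC) transfected with miR184 were compared across genes with the cells that received a control miRNA (control miR) and stood in the same deposited table. This comparison holds 6 of the study's 12 libraries, 3 with miR184 and 3 with control miR, called controls 1 to 3. Its genes were those with a mean of at least 1 RPKM (reads per kilobase of gene, scaled to sequencing depth) over the 6 libraries, which 10372 of the 48709 listed genes reached. All cells came from the bone marrow of mice with the genotype WT, were sorted, and gave RNA 2 days after transfection. The sources used here do not state the strain, age or number of the mice, the sort gate, or the form and dose of the transfected miRNA. The descriptions of the treated libraries read control miR184, while their titles and treatment labels name miR184. No label ties a replicate to its own mouse or culture, so p-values cover only the variation among these libraries, which may be technical.

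HSPC are rare marrow cells, stem cells and progenitors, that together give rise to every blood lineage. MicroRNAs are short RNAs that guide Argonaute proteins to messenger RNAs, mostly through pairing of the seed near their 5′ end with the 3′ UTR, and so lower the stability or translation of the target. An added miRNA is therefore usually looked for in the levels of transcripts that carry its seed match, and in the genes that move further downstream. The 2 arms of mouse miR-184 (RefSeq, GRCm38.p6, chromosome 9, minus strand) are shown because the site search below rests on them, with the seed, bases 2 to 8, in capitals.
mmu-miR-184-3p: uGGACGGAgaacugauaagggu
mmu-miR-184-5p: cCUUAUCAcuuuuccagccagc
The match to the 3p seed is TCCGTCC, which is an 8mer when followed by A. The 5 genes with such an 8mer, a mean of at least 5 RPKM and the lowest changes are shown by the 22 bases that end with the 8mer, which is in capitals (GRCm38, GENCODE M21 3′ UTR).
Cx3cr1: tcattccacaggacTCCGTCCA
Ndrg3: cagccgtctgtccaTCCGTCCA
Nus1: aacgtcctcagattTCCGTCCA
Hbs1l: aaaattgtcttaagTCCGTCCA
Slc25a22: tggctctcctgtccTCCGTCCA
These lie at chr9:120050437-120050458 and chr2:156935325-156935346 on the minus strand, chr10:52437193-52437214 and chr10:21310623-21310644 on the plus strand, and chr7:141430634-141430655 on the minus strand.

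Library totals recovered from the RPKM values lay between 39318912 reads (miR184 2) and 46601798 reads (control 1), at which 3 reads in a gene of 2000 bases equal at most 0.0381 RPKM. The library miR184 3 stood apart. It was the highest or the lowest of the 6 in 70.8% of tested genes, against 20.4% to 29.0% for the other libraries, and listed 421 genes with a single read, against 780 to 1056. Changes and list medians are therefore also given without it. The gene of the miR-184 precursor, Mir184, was listed at 0 in all 6 libraries, and such libraries are not made to capture mature miRNAs, so the values do not check the transfection. Of 14 HSPC markers, 13 were tested, and their summed level was 645 to 760 RPKM in controls and 627 to 679 with miR184. Of the markers of T, B and NK cells, of stroma and of endothelium, 1 in each list had a mean of at least 1 RPKM. Granulocyte precursor genes were abundant in both groups, with summed neutrophil markers of 7789 to 8902 RPKM in controls and 7888 to 8999 with miR184. These markers belong to committed myeloid cells. In such bulk samples, fewer cells of a type and less RNA per cell cannot be told apart.

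No gene passed the adjusted threshold with miR184, and the higher side held the larger differences. By limma on log2(RPKM + 1), 0 of 10372 genes (0.0%) passed at a Benjamini-Hochberg adjusted p of 0.05, the lowest being 0.118. At an unadjusted p under 0.05, 376 genes (3.63%) were higher with miR184 and 99 (0.954%) lower. With limma voom, run on reads recovered from the values, the number that passed was also 0, and 383 were higher and 107 lower at that unadjusted p. All 3 miR184 libraries lay above all 3 controls in 757 genes (7.3%) and below them in 457 (4.41%). A log2 difference of at least 1 was reached upwards by 19 genes and downwards by 2, while the median gene differed by 0.0022.

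The numbers grew without miR184 3, although there again no gene passed. The smallest adjusted p in that fit was 0.056 (limma). At an unadjusted p under 0.05, 564 genes (5.44%) were then higher and 158 (1.52%) lower. In both fits 407 genes had an unadjusted p under 0.05 with the same sign, 341 of them higher. The remaining miR184 libraries lay above all controls in 1372 genes (13.2%) and below in 891 (8.59%), a count that any comparison of 2 with 3 libraries raises. Of all tested genes, 29.7% had the opposite sign without miR184 3. A fit with array weights, in which limma lets an outlying library count for less and gave miR184 3 a weight of 0.118, passed 160 genes (1.54%) upwards and 7 (0.0675%) downwards at the adjusted threshold. At an unadjusted p under 0.05 that fit held 726 genes (7.0%) upwards and 327 (3.15%) downwards. Of the 167 genes that passed it, 138 had non-overlapping groups in all 6 libraries.

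The genes furthest above their controls encode proteins of unrelated roles. The genes described are the 12 with the largest log2 change among those at a mean of at least 5 RPKM, with non-overlapping groups and an unadjusted p under 0.05. Rnf187, a RING finger ubiquitin ligase, stood at 38.9, 14.9 and 13.4 RPKM in controls 1 to 3 and at 67.9, 104 and 51.1 with miR184 1 to 3. Tmem165, a Golgi membrane protein needed for glycosylation, stood at 16.3, 6.94 and 7.84 RPKM in controls 1 to 3 and at 26.5, 44.9 and 20.05 with miR184 1 to 3. Cmas, the enzyme that activates sialic acid, stood at 13.1, 6.97 and 7.17 RPKM in controls 1 to 3 and at 18.4, 23.6 and 14.8 with miR184 1 to 3. In all 3 genes control 1 was the highest control and miR184 2 the highest treated library. That every miR184 library lay above control 1 follows from the rule that chose these genes. The log2 changes were 1.79 ± 0.41, 1.48 ± 0.36 and 1.01 ± 0.25 (SE), and without miR184 3 they were 2.02, 1.73 and 1.17.

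The same order of libraries returned in other genes of this set. Ybx1, a Y-box protein that binds messenger RNA, stood at 104, 51.8 and 53.4 RPKM in controls 1 to 3 and at 139, 188 and 116 with miR184 1 to 3. Coq2, an enzyme of coenzyme Q synthesis, stood at 12.2, 7.17 and 8.24 RPKM in controls 1 to 3 and at 17.9, 28.02 and 16.7 with miR184 1 to 3. Nsmce4a, a subunit of the SMC5/6 complex that maintains chromosomes, stood at 11.2, 6.85 and 6.802 RPKM in controls 1 to 3 and at 14.4, 28.4 and 13.4 with miR184 1 to 3. Control 1 again lay well above the other controls in these genes, and miR184 2 was the highest library. Odc1, the first enzyme of polyamine synthesis, stood at 56.2, 31.8 and 32.8 RPKM in controls 1 to 3 and at 77.3, 96.8 and 72.3 with miR184 1 to 3, with a log2 change of 1.05 ± 0.22 and 1.13 without miR184 3. The log2 changes of Ybx1, Coq2 and Nsmce4a were 1.12 ± 0.29, 1.09 ± 0.23 and 1.04 ± 0.30, and 1.28, 1.23 and 1.23 without miR184 3.

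The remaining 5 of the 12 genes are known from stem cell quiescence, secretion, platelets, the nuclear lamina and macrophages. Cdkn1c, which encodes the cell cycle inhibitor p57, stood at 5.36, 4.51 and 2.56 RPKM in controls 1 to 3 and at 18.5, 19.05 and 8.95 with miR184 1 to 3. Igfbp7, a secreted protein that binds insulin-like growth factors, stood at 3.98, 1.18 and 1.6004 RPKM in controls 1 to 3 and at 7.4997, 7.87 and 8.22 with miR184 1 to 3. Gp1bb, a subunit of the platelet receptor for von Willebrand factor, stood at 4.48, 1.77 and 2.06 RPKM in controls 1 to 3 and at 7.59, 8.099 and 7.48 with miR184 1 to 3. Each miR184 library was above each control in these genes, as the rule that chose them requires, and control 1 was again the highest control. The log2 changes were 1.65 ± 0.32, 1.54 ± 0.28 and 1.28 ± 0.24, and 1.98, 1.51 and 1.30 without miR184 3. With 1 library left out at a time they ran from 1.41 to 1.98 for Cdkn1c, 1.30 to 1.90 for Igfbp7 and 1.09 to 1.58 for Gp1bb, and Igfbp7 and Gp1bb passed without control 1. All 8 megakaryocyte markers were higher, and 3 lay above all controls, against 7.3% of all tested genes, one of the 3 being Gp1bb, which was named for that. Their sum was 563 to 627 RPKM in controls and 603 to 679 with miR184.

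Lmnb1, the gene of lamin B1, stood at 15.4, 14.4 and 11.4 RPKM in controls 1 to 3 and at 28.96, 28.9 and 35.2 with miR184 1 to 3. Gpnmb, a membrane glycoprotein of melanosomes and lysosomes, stood at 20.6, 28.8 and 23.04 RPKM in controls 1 to 3 and at 66.6, 76.9 and 56.4 with miR184 1 to 3. Gpnmb was the 1 gene of the 12 in which control 1 was the lowest control. The log2 changes were 1.13 ± 0.12 and 1.43 ± 0.15, and 1.03 and 1.54 without miR184 3, and both genes passed with array weights. Of the 17 tested genes of the nuclear lamina and envelope, 12 were lower, with a median of -0.052, or -0.020 without miR184 3. Lmnb1, which was named for its separate groups, was the 1 member above all controls, and Lemd3 was the 1 below. Over all tested genes 7.3% lay above all controls and 4.41% below.

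**Figure D1:**
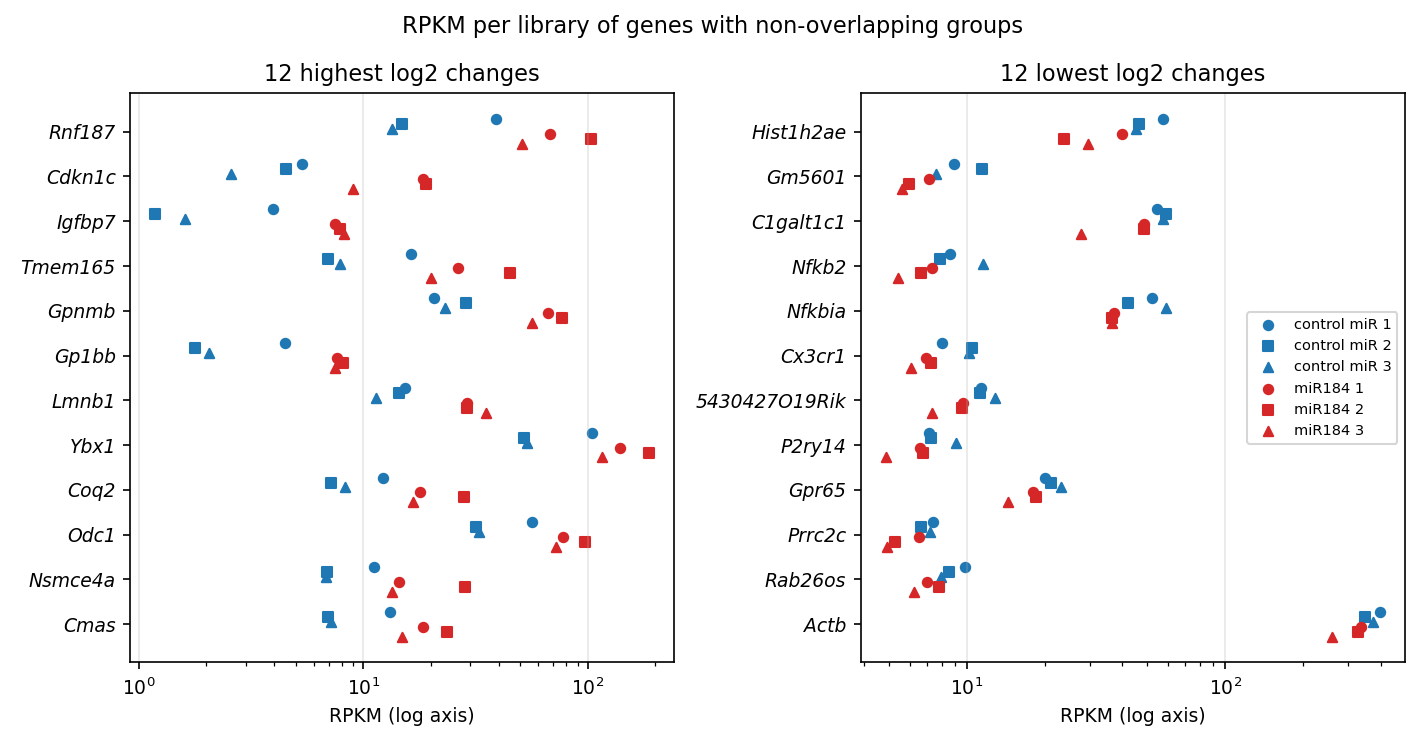
RPKM in each library, on a log axis, of the 12 genes with the highest and the 12 with the lowest log2 change among genes with non-overlapping groups, a mean of at least 5 RPKM and an unadjusted p under 0.05. On the left, control 1 (blue circles) is the highest control in 11 genes and miR184 2 (red squares) the highest treated library in 10, and on the right miR184 3 (red triangles) is mostly the lowest library.

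The genes that passed upwards with array weights were rich in GC at their transcript start. The weights count the libraries unequally, with 0.823 for control 1 and 0.118 for miR184 3, so the order of libraries within a group is partly fixed by this choice and is given as a description. GC content was taken from the first 300 bases of the transcript with the longest coding sequence, which 9709 tested genes had. Its median was 60.7% over these genes and 71.3% over the genes that passed upwards with array weights, of which 62 of 151 with a value lay in the most GC-rich of 10 bins (73.3% to 86.7% GC). Among the 12 genes above, Odc1 held 77.7% and Coq2 77.3%, whereas Gpnmb held 55.3% and Gp1bb 57.3%. Control 1 was the highest control in 83.8% of the 160 genes that passed upwards with array weights and in 37.2% of all tested genes. Both control 1 and miR184 2 led their groups in 101 of the 160 genes, or 63.1%, against 11.6% of all tested genes.

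Across the table, the share of genes above all controls followed GC content. It was 3.82% in the bin of lowest GC (24.7% to 49.7%) and 17.1% in the bin of highest GC, against 7.46% of all genes with a value. Without miR184 3 these shares were 7.14% and 30.0%. The share below all controls went the other way, from 6.85% to 2.83%. The bin of highest GC held 62 of the 132 genes with a log2 change of at least 0.5. The bin as a whole differed little, with a median log2 change of 0.059, or 0.052 without miR184 3, against changes above 1 in the genes named here. Its median deviation from the mean of the 6 libraries was -0.059 in control 2, -0.046 in control 3, 0.0042 in control 1 and 0.022 to 0.039 in the miR184 libraries. Control 1 thus lay between the other controls and the treated libraries, and the part of GC content or of single libraries in these differences was not tested.

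**Figure D2:**
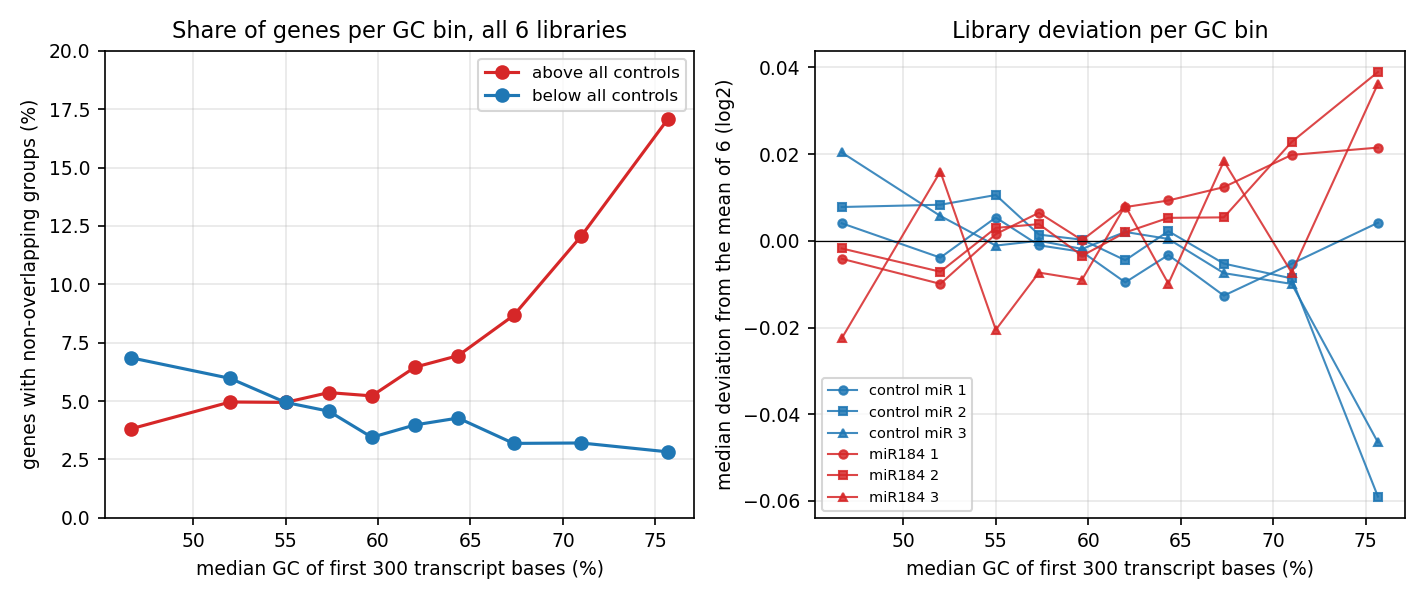
Left, percent of genes whose 3 miR184 libraries lie above (red) or below (blue) all controls in 10 bins of GC content of the first 300 transcript bases, which rises from 3.82% to 17.1% and falls from 6.85% to 2.83%. Right, the median deviation of each library from the mean of the 6 on the log2(RPKM + 1) scale, where controls 2 and 3 lie lowest in the bin of highest GC.

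Genes of intracellular signalling and chromatin were among those that passed with array weights. Of 27 tested RAS-MAPK genes, the cascade that carries growth factor signals to the nucleus, 21 were higher with a median of 0.077, and 4 lay above all controls and 1 below. Over all tested genes 5249 of 10372 were higher, 7.3% lay above all controls and 4.41% below. Without miR184 3, 17 of the 27 were higher with a median of 0.043, and the median GC of the list was 70.0%. The adaptor gene Grb2 stood at 15.95, 10.9 and 10.3 RPKM in controls 1 to 3 and at 19.7, 28.1 and 17.3 with miR184 1 to 3, a log2 change of 0.76 ± 0.21, or 0.90 without miR184 3. Its groups did not overlap, it passed with array weights, and control 1 was its highest control.

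Of the 37 tested genes of chromatin complexes 5 lay above all controls and 3 below, against 7.3% and 4.41% of all tested genes. Smarcd2, a SWI/SNF subunit needed for granulocyte development, stood at 31.5, 18.7 and 21.3 RPKM in controls 1 to 3 and at 43.9, 46.1 and 36.99 with miR184 1 to 3. Eed, a core Polycomb subunit, stood at 22.1, 18.5 and 18.7 RPKM in controls 1 to 3 and at 25.1, 25.04 and 26.2 with miR184 1 to 3. Both had non-overlapping groups and log2 changes of 0.83 ± 0.18 and 0.35 ± 0.079, or 0.92 and 0.34 without miR184 3. The 37 tested members of the Polycomb, NuRD and SWI/SNF list had a median of 0.038, or 0.0093 without miR184 3. Cebpa, the transcription factor that commits progenitors to granulocytes and monocytes, stood at 3.77, 1.99 and 2.08 RPKM in controls 1 to 3 and at 4.73, 7.32 and 3.72 with miR184 1 to 3. Its groups overlapped because control 1 lay above miR184 3, and its log2 change was 0.79 ± 0.25, or 0.97 without miR184 3. Gclm, the regulatory subunit of the enzyme that starts glutathione synthesis, showed the same overlap at 13.1, 6.25 and 6.67 RPKM in controls 1 to 3 and at 16.6, 30.8 and 11.7 with miR184 1 to 3.

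Other genes above their controls belong to the endolysosomal compartment, where cells digest proteins and lipids. Of 39 tested lysosomal genes, 24 were higher and 15 lower, 11 lay above all controls and 1 below, and the median was 0.033. Over all tested genes 7.3% lay above and 4.41% below. The mean log2(RPKM + 1) of the list was lowest in control 1, at 4.999, with 5.06 and 5.09 in the other controls and 5.13, 5.195 and 5.07 in the miR184 libraries. Without miR184 3, 29 were higher with a median of 0.063, whereas without control 1 the median was -0.0038. Lgmn, the asparaginyl protease legumain, stood at 5.903, 4.98 and 5.29 RPKM in controls 1 to 3 and at 8.01, 9.897 and 11.4 with miR184 1 to 3. Pld3, a lysosomal exonuclease, stood at 14.8, 15.2 and 14.6 RPKM in controls 1 to 3 and at 20.1, 20.1 and 23.8 with miR184 1 to 3. Cd68, a glycosylated membrane protein of macrophage lysosomes, stood at 51.8, 50.1 and 56.4 RPKM in controls 1 to 3 and at 65.2, 71.8 and 70.4 with miR184 1 to 3. In these genes the controls lay close together and miR184 2 or miR184 3 was highest, with log2 changes of 0.74 ± 0.13, 0.49 ± 0.079 and 0.38 ± 0.064. Without miR184 3 the changes were 0.64, 0.41 and 0.37.

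Abundant hydrolases and their cofactors differed by less but with separate groups. Cathepsin D (Ctsd) stood at 260.2, 285 and 303 RPKM in controls 1 to 3 and at 352, 366 and 324 with miR184 1 to 3, a log2 change of 0.30 ± 0.073, or 0.35 without miR184 3. Prosaposin (Psap), the precursor of the saposins that aid lipid breakdown, stood at 242, 249 and 267 RPKM in controls 1 to 3 and at 299, 297 and 296 with miR184 1 to 3, a change of 0.24 ± 0.050, or 0.24 without miR184 3. Cathepsin B (Ctsb) stood at 101, 124 and 128 RPKM in controls 1 to 3 and at 133, 148 and 129.6 with miR184 1 to 3, a change of 0.22 ± 0.0998, or 0.26 without miR184 3. Control 1 was the lowest control in all 3 genes, and in Ctsb the lowest miR184 library lay barely above the highest control. Other lysosomal genes did not share this, with log2 changes of -0.14 ± 0.079 for Lamp2 and -0.22 ± 0.20 for the calcium channel gene Mcoln1, or -0.092 and 0.036 without miR184 3. Among subunits of the V-ATPase, the pump that acidifies lysosomes, 11 of 17 were higher with a median of 0.030, or 0.026 without miR184 3. The macrophage and osteoclast subunit Atp6v0d2 stood at 0.466, 0.622 and 0.263 RPKM in controls 1 to 3 and at 1.88, 1.65 and 2.63 with miR184 1 to 3, a low level with separate groups and a log2 change of 1.07 ± 0.16, or 0.94 without miR184 3.

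Genes of lipid handling, which in macrophages load and store fatty acids, gave a similar picture. Of 19 tested members 13 were higher, 6 lay above all controls and 1 below, against 7.3% and 4.41% of all tested genes, and the median was 0.072, or 0.055 without miR184 3. The fatty acid binding protein gene Fabp5 stood at 41.3, 37.2 and 36.4 RPKM in controls 1 to 3 and at 49.3, 47.03 and 49.02 with miR184 1 to 3, a log2 change of 0.33 ± 0.062, or 0.33 without miR184 3. The scavenger receptor gene Cd36 stood at 1.15, 1.23 and 1.48 RPKM in controls 1 to 3 and at 2.32, 4.65 and 3.12 with miR184 1 to 3, a change of 0.90 ± 0.19, or 0.93 without miR184 3. Fabp4 stood at 1.25, 1.08 and 0.8998 RPKM in controls 1 to 3 and at 2.17, 3.26 and 1.45 with miR184 1 to 3, a change of 0.63 ± 0.20, or 0.83 without miR184 3. The groups were separate in these genes, with Cd36 and Fabp4 at low levels and highest in miR184 2. The lipoprotein lipase gene Lpl stood in the other direction at 7.88, 12.6 and 14.4 RPKM in controls 1 to 3 and at 9.01, 10.9 and 4.899 with miR184 1 to 3, with overlapping groups. Lgals3, a galectin of macrophages, stood at 115, 113 and 105 RPKM in controls 1 to 3 and at 181, 169 and 151 with miR184 1 to 3, a change of 0.58 ± 0.075, or 0.65 without miR184 3, in a list of annexins and galectins of which 6 of 17 were higher, with a median of -0.017. Without miR184 3, 11 of the 17 were higher, with a median of 0.025.

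Iron and heme genes were higher in 15 of 22 tested members, with a median of 0.054 and a range of 0.039 to 0.061 over the fits that leave out 1 library. Of the 22 genes 2 lay above all controls and 2 below, against 7.3% and 4.41% of all tested genes. Slc11a1, which pumps iron and manganese out of phagosomes, stood at 4.89, 5.42 and 5.62 RPKM in controls 1 to 3 and at 8.25, 9.501 and 7.07 with miR184 1 to 3, a log2 change of 0.55 ± 0.11, or 0.65 without miR184 3. Blvrb, a reductase of heme breakdown, stood at 28.6, 29.4 and 29.7 RPKM in controls 1 to 3 and at 35.5, 37.6 and 35.4 with miR184 1 to 3, a change of 0.30 ± 0.052, or 0.31 without miR184 3. Both passed with array weights and had separate groups. Hmox1, the enzyme that opens heme, stood at 9.13, 11.9 and 10.6 RPKM in controls 1 to 3 and at 10.9, 16.7 and 16.7 with miR184 1 to 3, where control 2 lay above miR184 1. The list of glutathione and NRF2 genes, which answer oxidative stress, was higher in 23 of 30 members with a median of 0.035, or 0.055 without miR184 3, and glutathione reductase (Gsr) stood at 97.5, 89.7 and 86.9 RPKM in controls 1 to 3 and at 109, 112 and 98.8 with miR184 1 to 3. In that list 4 genes lay above all controls and 1 below. The 1 below, Mgst1, stood at 54.7, 59.5 and 54.9 RPKM in controls 1 to 3 and at 51.6, 50.9 and 47.3 with miR184 1 to 3.

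Class II antigen presentation, by which dendritic cells, macrophages and B cells show peptides to T helper cells, was the list with the largest median. Of its 12 tested genes 11 were higher, 8 lay above all controls and 0 below, and the median was 0.19. Over all tested genes 50.6% were higher, 7.3% lay above all controls and 4.41% below. Without miR184 3, 10 were higher with a median of 0.22, and leaving out any 1 library gave 0.14 to 0.22. The invariant chain gene Cd74 stood at 149, 139.6 and 181 RPKM in controls 1 to 3 and at 217, 211 and 252 with miR184 1 to 3, a log2 change of 0.54 ± 0.11, or 0.46 without miR184 3. H2-Eb1, a class II beta chain, stood at 21.97, 23.6 and 30.1 RPKM in controls 1 to 3 and at 36.2, 32.6 and 41.6 with miR184 1 to 3, a change of 0.53 ± 0.13, or 0.44 without miR184 3. H2-Ab1, another beta chain, stood at 75.9, 65.4 and 87.5 RPKM in controls 1 to 3 and at 113, 102 and 114 with miR184 1 to 3. In these genes miR184 3 was highest and control 3 the highest control, so the library order differed from that of the genes rich in GC. Members that load peptides differed less, with log2 changes of 0.029 ± 0.060 for H2-DMa and 0.17 ± 0.065 for H2-DMb1, and H2-Oa, which restrains that loading, stood at 0.21 ± 0.091. Without miR184 3 these were 0.065, 0.18 and 0.26.

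Markers of the cells that carry these proteins were set beside these 3 groups. Of 12 monocyte or macrophage markers 9 were tested, 4 higher and 5 lower, with a summed level of 2964 to 3407 RPKM in controls and 2893 to 3010 with miR184. Csf1r, the receptor that defines the macrophage lineage, stood at 39.9, 47.2 and 55.9 RPKM in controls 1 to 3 and at 40.7, 43.9 and 42.2 with miR184 1 to 3, and Cd68, given above, was the 1 tested marker above all controls. Adgre1 was the 1 tested marker below them, against 7.3% of all tested genes above all controls and 4.41% below. It stood at 7.08, 8.24 and 8.03 RPKM in controls 1 to 3 and at 6.85, 6.98 and 2.79 with miR184 1 to 3. The tissue macrophage markers C1qa, C1qc and Mrc1 had means under 1 RPKM. Of these, C1qc lay above all controls, with 0.267, 0.273 and 0.358 RPKM in controls and 0.384, 0.5005 and 0.769 with miR184. C1qa did not, with 0.165, 0.253 and 0.244 RPKM in controls and 0.156, 0.196 and 0.0893 with miR184. Mrc1 stood at 0.0303, 0.0792 and 0.0506 RPKM in controls and 0.135, 0.0998 and 0 with miR184. C1qb stood at 0.592, 0.908 and 0.762 RPKM in controls and 0.725, 1.01 and 2.07 with miR184, highest in miR184 3. Of 7 dendritic cell markers 3 were tested, with a sum of 41.2 to 48.7 RPKM in controls and 47.6 to 50.8 with miR184, and Xcr1, Clec9a, Zbtb46 and Itgax had means under 1. Of 6 B cell markers only Cd79b was tested, at 17.96 to 19.9 RPKM in controls and 18.9 to 23.6 with miR184. The summed B cell markers were 18.3 to 20.2 RPKM in controls and 19.4 to 25.8 with miR184, highest in miR184 3, which was also the highest library in the class II genes above. The summed mast cell and basophil markers were 684 to 866 RPKM in controls and 755 to 1112 with miR184. The part of a shift in cell types in the class II, lysosomal and lipid genes was not tested.

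Class I presentation, which shows peptides of the cytosol to cytotoxic T cells, stood on the other side. Of 17 tested genes 14 were lower, with a median of -0.12, but 0 lay below all controls. The transporter gene Tap1 stood at 35.4, 41.2 and 55.7 RPKM in controls 1 to 3 and at 38.8, 44.4 and 30.8 with miR184 1 to 3. H2-K1, a classical class I chain, stood at 441, 488 and 592 RPKM in controls 1 to 3 and at 432, 515 and 469 with miR184 1 to 3. The light chain gene B2m stood at 2387, 2565 and 2930.4 RPKM in controls 1 to 3 and at 2079, 2594 and 2186 with miR184 1 to 3. Control 3 was the highest of the 6 libraries in these 3 genes and the highest control in all 17, and without it the median was -0.035, against -0.095 without miR184 3. The mean log2 level of the class I list was 5.996, 6.16 and 6.45 in controls 1 to 3 and 6.01, 6.20 and 5.97 with miR184 1 to 3, and that of the class II list 4.60, 4.60 and 4.77 in controls and 4.90, 4.83 and 4.98 with miR184. Nucleic acid sensors and Toll-like receptors were lower in 17 of 24 members with a median of -0.069, or -0.035 without miR184 3 and 0.011 without control 3. Of these members 2 lay above all controls and 0 below, against 7.3% and 4.41% of all tested genes. Irak1, 1 of the 2, stood at 21.5, 16.6 and 16.04 RPKM in controls 1 to 3 and at 28.2, 36.8 and 24.8 with miR184 1 to 3.

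**Figure D3:**
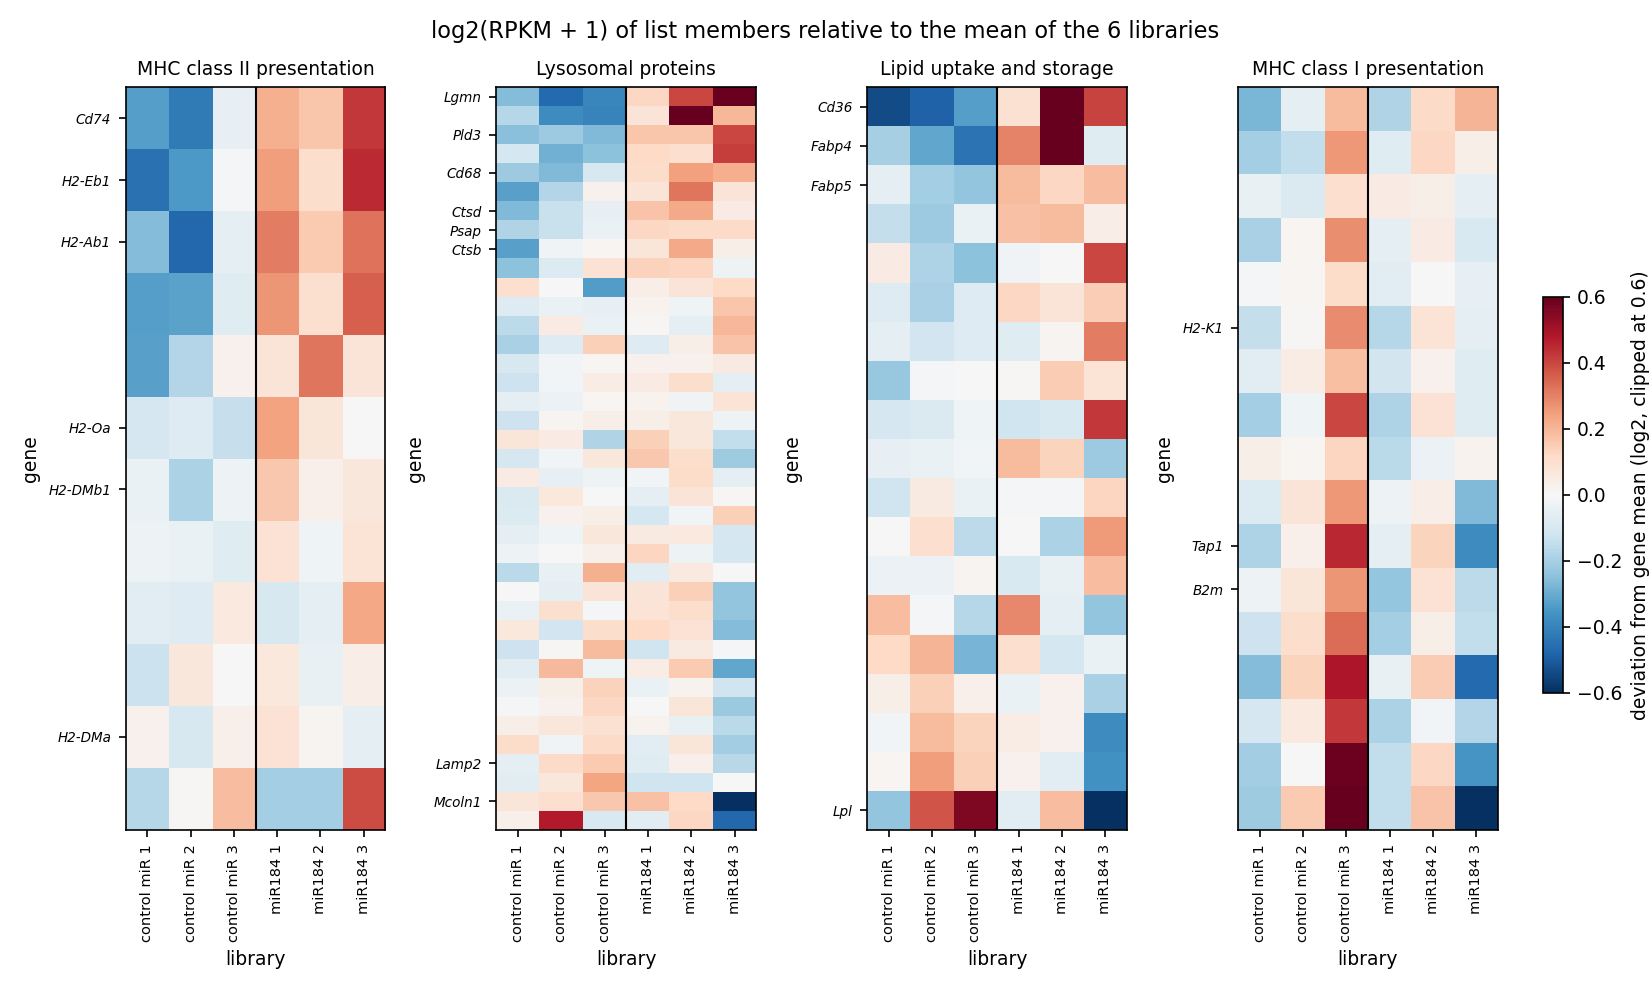
Deviation of log2(RPKM + 1) in each library from the mean of the 6 for the tested members of 4 lists, with genes ordered by log2 change, colour limited at 0.6 and names given for the members described in the text. The upper members of the class II, lysosomal and lipid lists are above their mean in the miR184 libraries, while class I genes are highest in control 3.

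On the lower side the differences were smaller. By the same rule the gene furthest below its controls was Hist1h2ae, a replication-dependent histone H2A gene, at 57.3, 46.5 and 45.3 RPKM in controls 1 to 3 and at 39.7, 23.7 and 29.4 with miR184 1 to 3, a log2 change of -0.69 ± 0.18, or -0.67 without miR184 3. The linker histone gene Hist1h1e stood at 33.6, 29.2 and 22.8 RPKM in controls 1 to 3 and at 24.3, 13.4 and 16.3 with miR184 1 to 3, where miR184 1 lay above control 3. Of 36 tested histone genes 20 were lower and 16 higher, with a median of -0.030, or -0.0080 without miR184 3, so the median member lay near its controls. Of the 36 genes 2 lay above all controls and 3 below, against 7.3% and 4.41% of all tested genes. At an unadjusted p under 0.05 (limma) 5 were lower and 2 higher, against 0.954% and 3.63% of all tested genes. Without miR184 3 these counts were 2 and 4, against 1.52% and 5.44%. Reads of near-identical histone genes may be split between entries, and replication-dependent histone RNAs lack the poly(A) tail of other messengers.

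Other lower genes encode a transcription factor subunit and membrane receptors. Nfkb2, a subunit of NF-kappaB, stood at 8.62, 7.88 and 11.5 RPKM in controls 1 to 3 and at 7.31, 6.64 and 5.43 with miR184 1 to 3. Gpr65, an acid-sensing receptor, stood at 20.1, 21.2 and 23.1 RPKM in controls 1 to 3 and at 18.1, 18.6 and 14.4 with miR184 1 to 3. P2ry14, a receptor for UDP-sugars found on progenitors, stood at 7.15, 7.28 and 9.102 RPKM in controls 1 to 3 and at 6.56, 6.73 and 4.84 with miR184 1 to 3. The groups were separate, as the rule that chose these genes requires, but adjacent, and in each gene miR184 3 was the lowest library. The log2 changes were -0.46 ± 0.15, -0.33 ± 0.11 and -0.33 ± 0.14, and without miR184 3 they were -0.36, -0.22 and -0.20. C1galt1c1, the chaperone of an O-glycosylation enzyme, depended on that library, at 54.6, 58.9 and 57.3 RPKM in controls 1 to 3 and at 48.3, 48.5 and 27.6 with miR184 1 to 3, with a change of -0.49 ± 0.20 that was -0.23 without it.

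Lower genes also included a chemokine receptor, actin and a growth factor receptor. Cx3cr1, the fractalkine receptor of monocytes, stood at 7.9996, 10.4 and 10.2 RPKM in controls 1 to 3 and at 6.97, 7.26 and 6.09 with miR184 1 to 3, a log2 change of -0.43 ± 0.12, and -0.37 without miR184 3. Actb, the cytoskeletal beta actin often used as a reference, stood at 398, 348 and 373 RPKM in controls 1 to 3 and at 336, 328 and 259.6 with miR184 1 to 3, a change of -0.28 ± 0.11, or -0.17 without miR184 3. Kit, the stem cell factor receptor that marks HSPC, stood at 53.8, 57.1 and 55.1 RPKM in controls 1 to 3 and at 53.1, 51.4 and 46.9 with miR184 1 to 3, a change of -0.13 ± 0.061, or -0.081 without miR184 3. Each group was separate, which the rule requires for Cx3cr1 and Actb, with miR184 3 lowest in all 3 genes. The unadjusted p of Kit was 0.065 (limma). Of 13 tested HSPC markers 7 were higher and 6 lower. Among these markers 1, Gata2, lay above all controls and 1, Kit, below, against 7.3% and 4.41% of all tested genes. Nrbf2, an autophagy factor, and I830127L07Rik passed downwards with array weights, at log2 changes of -0.27 ± 0.066 and -0.25 ± 0.054, or -0.22 and -0.29 without miR184 3. Aif1, a calcium-binding protein of macrophages, passed there although miR184 3 broke its order, at 7.998, 7.75 and 7.88 RPKM in controls 1 to 3 and at 5.07, 5.84 and 8.15 with miR184 1 to 3.

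Most of the broad cell machinery lay near its control level or shifted when single libraries were left out. The 68 ribosomal protein genes, whose reads may be shared with processed pseudogenes, had a median of -0.0019, and control 1 was the highest control in all 68. Their median ran from -0.069 without control 3 to 0.063 without control 1. Respiratory chain subunits encoded in the nucleus were lower in 52 of 73 genes and in 58 of 73 without miR184 3, with medians of -0.036 and -0.026. Of the 73 genes 1 lay above all controls and 2 below, against 7.3% and 4.41% of all tested genes. The median of these subunits without control 1 was 0.00046. Aminoacyl-tRNA synthetases were higher in 15 of 20 genes with a median of 0.055, which was 0.0042 without miR184 3. Proteasome subunits were higher in 15 of 31, with a median of -0.0030, or -0.013 without miR184 3.

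Lists of growth control and survival rested on miR184 3. Genes of p53 and its targets were lower in 18 of 25 members, with a median of -0.060 that became 0.0036 without that library, and the p53 antagonist Mdm2 stood at 12.99, 14.2 and 13.95 RPKM in controls 1 to 3 and at 12.3, 12.4 and 12.6 with miR184 1 to 3. Genes of the BCL2 family and caspases were lower in 19 of 29 with a median of -0.032, and 0.00065 without it. Genes of miRNA processing and silencing were lower in 14 of 21 with a median of -0.056, and -0.0059 without it. Polyamine genes were higher in 11 of 13 with a median of 0.12, and 0.039 without it, where 7 of 13 were higher. Hematopoietic transcription factors were higher in 24 of 34, and in 16 of 34 without it. Of 48 lists with at least 5 tested members, 13 changed the sign of the median without miR184 3, and 22 kept 1 sign in every fit that left out a library.

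**Figure D4:**
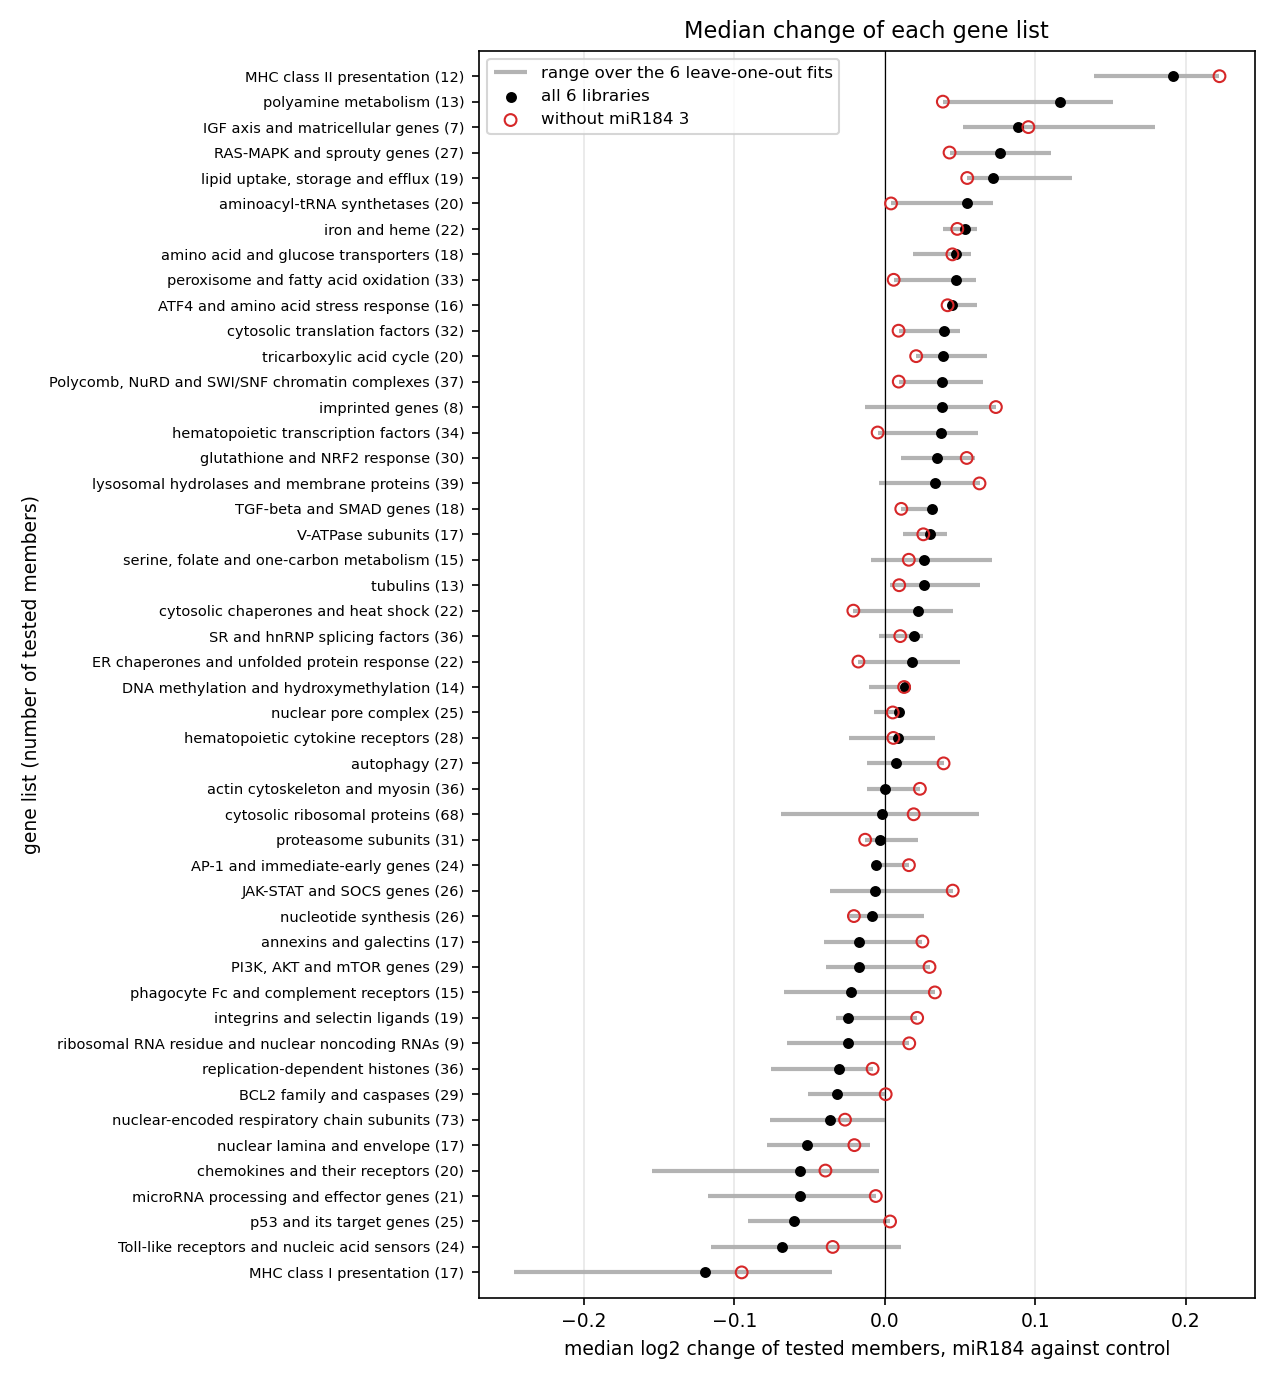
Median log2 change, miR184 against control, of the tested members of 48 gene lists with all 6 libraries (black), without miR184 3 (red rings) and over the fits that leave out 1 library (grey range). Class II presentation has the highest median, 0.19, and class I presentation the lowest, -0.12.

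Median log2 changes of genes with and without a seed match lay close together, and were higher for 8mers of the 3p arm and lower for any site of the 5p arm than for genes without a site. In the 3′ UTR an 8mer of the 3p arm was found in 66 of 9669 tested genes with an annotated 3′ UTR (0.683%), of which 41 were higher and 25 lower. Among these, 9 lay above all controls and 1 below, against 688 and 399 of the 9197 genes without a site. Their median was 0.044, and 0.014 without miR184 3. The 472 genes with any site (8mer TCCGTCCA, 7mers TCCGTCC and CCGTCCA, sense strand) had a median of 0.0063 and the genes without a site 0.0039, a difference of 0.0023, which was -0.0033 without miR184 2. The 242 genes whose best site was the 7mer TCCGTCC had a median of -0.00033, or 0.0060 without miR184 3. Genes with at least 2 sites numbered 39, with a median of 0.055, or 0.012 without miR184 3. For sites in the coding sequence, the medians were 0.0063 over 804 genes and 0.0033 over 8909 genes without one. Without miR184 3 these were 0.011 and 0.0042. For the 5p arm the median was -0.000097 over 1006 genes with a site in the 3′ UTR and 0.0045 over 8663 genes without one, or -0.0084 and 0.0066 without miR184 3. Of these genes 6.16% with a site lay below all controls and 4.16% without one. The 231 genes with an 8mer of the 5p arm had a median of -0.011, or -0.0098 without miR184 3. In the 322 genes whose best 5p site was the 7mer GATAAGA the median was 0.0068, or -0.0075 without miR184 3. For sites of the 5p arm in the coding sequence the medians were -0.0011 over 1265 genes and 0.0048 over 8448 genes without one. Without miR184 3 these were -0.0064 and 0.0066.

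Of the 5 genes whose sites are printed above, Cx3cr1 was the 1 with all miR184 libraries below all controls. Ndrg3 stood at 6.69, 6.71 and 6.51 RPKM in controls 1 to 3 and at 7.02, 6.92 and 3.48 with miR184 1 to 3. Nus1, a subunit of the enzyme that makes dolichol, stood at 7.62, 7.48 and 6.98 RPKM in controls 1 to 3 and at 7.23, 7.52 and 4.99 with miR184 1 to 3. Hbs1l, a ribosome rescue factor, stood at 18.01, 17.3 and 17.4 RPKM in controls 1 to 3 and at 17.6, 16.5 and 13.8 with miR184 1 to 3. In these 3 genes miR184 3 alone lay clearly under the other libraries, and their log2 changes of -0.21 ± 0.22, -0.16 ± 0.14 and -0.14 ± 0.092 were 0.062, 0.0032 and -0.040 without it. The mitochondrial glutamate carrier gene Slc25a22 stood at 10.02, 10.5 and 14.4 RPKM in controls 1 to 3 and at 9.802, 11.1 and 10.5 with miR184 1 to 3, where control 3 was the highest. A match in the 3′ UTR is a description of the sequence and not a measured binding site.

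**Figure D5:**
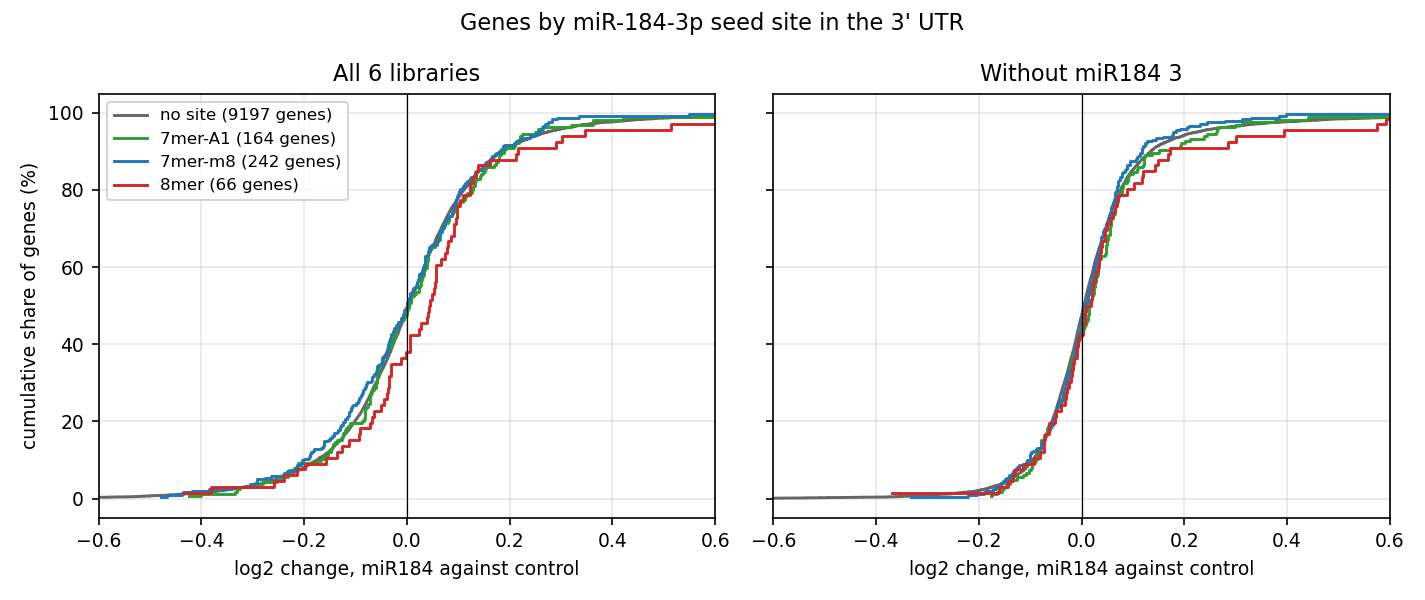
Cumulative share of genes by log2 change for genes with an 8mer, a 7mer or no site of miR-184-3p within the 3′ UTR, with all 6 libraries (left) and without miR184 3 (right). The 8mer curve lies to the right of the curve without a site, with medians of 0.044 and 0.0039, and the curves lie closer without miR184 3.

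The most abundant transcripts differed little between the groups. The mitochondrial messenger mt-Co3 stood at 8026, 7613 and 7358 RPKM in controls 1 to 3 and at 7766, 6904 and 7756 with miR184 1 to 3. Ftl1, the light chain of the iron store ferritin, stood at 4048, 4143 and 4155 RPKM in controls 1 to 3 and at 4255, 4660.3 and 3922 with miR184 1 to 3. Mpo, the myeloperoxidase of granulocyte precursors, stood at 3869, 4312 and 3830.4 RPKM in controls 1 to 3 and at 4131, 3804 and 3845 with miR184 1 to 3. The groups overlapped in all 3, and log2 changes of -0.038 ± 0.076, 0.053 ± 0.075 and -0.027 ± 0.071 (-0.065, 0.11 and -0.012 without miR184 3) each changed sign in at least 1 fit that left out a library.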

How the data were processed

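RNA of sorted bone marrow cells was extracted with a PicoPure kit and sequenced, per the labels' protocols. The authors deposited 2 tables of RPKM, per the file headers, and the table of miR184 was used. The other was not used here. The genome build named in the submitters' processing notes was mm10. Aligner, counter, annotation and strandedness were not given in the sources used here. Symbols, transcripts and 3′ UTRs came from GENCODE M21 (GRCm38) and matched 96.4% of genes above 0, and miRNAs came from RefSeq. Whole reads were recovered from all 19676 genes above 0 (100% within 0.01 reads), which gave the library totals. Limits in RPKM cover counting error only, and a count of 0 allows up to 3 reads, while SE values come from the spread among libraries.

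The test was limma 3.58.1 (R 4.3.3) with an intensity trend on log2(RPKM + 1), a scale that understates changes of low genes, for genes with a mean of at least 1 RPKM, two-sided, adjusted over all tested genes. It was first tested on simulated data. Changes are log2 differences ± SE. Gene lists are described by counts and medians without a test. Members, the 49 lists and the rules were chosen with earlier results of these data known. Genes were named by rule: the 12 highest and 12 lowest changes as described, up to 3 members of each list by smallest p, up to 10 genes each way that passed with array weights or without miR184 3, the 5 most abundant genes, the 5 lowest genes with an 8mer, and 5 genes at 0 in miR184 3. Further list members named with their values (Ctsd, Psap, Ctsb, Lamp2, Mcoln1, Lpl, Hmox1, H2-Eb1, H2-DMa, H2-DMb1, H2-Oa, Tap1, H2-K1, Csf1r, Adgre1, C1qa, C1qb, C1qc, Mrc1 and Cd79b) and the genes of the closing observations were chosen after their values were seen. Some genes that the rules name are not reported here. Columns of per-sample values left unused numbered 0. Python 3.11.15, numpy 2.4.6, pandas 2.3.3 and matplotlib 3.10.9 were used. Alternatives covered the pseudocount, filter, scaling, voom, array weights, a replicate block, each library left out and the site definition.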

Additional observations from a re-analysis of the deposited data

How the results depend on the processing

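With array weights 160 genes passed upwards and 7 downwards, and 726 and 327 had an unadjusted p under 0.05, where the equal-weight fit gave 0, 0, 376 and 99. The number that passed upwards was 0 to 2 over the fits that leave out 1 library, the 2 being Igfbp7 and Gp1bb without control 1, and it was 0 with a pseudocount of 0.1, no filter, a minimum of 5 RPKM, median-ratio scaling or voom. At an unadjusted p, leaving out 1 library gave 223 to 564 genes upwards and 41 to 182 downwards, the lowest without control 2 in both. A minimum of 5 RPKM gave 247 genes upwards, and no filter gave 359 downwards. The counts of non-overlapping genes were 491 above all controls with a minimum of 5 RPKM and 854 below without a filter, with 1118 to 1390 above and 756 to 1095 below when 1 library was left out, since fewer libraries overlap less. The difference of site genes ran from -0.0033 to 0.0073 over the fits that leave out 1 library.

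The replicate block by title number passed 2 genes upwards, Gpnmb and Cdkn1c, and 0 downwards. The numbers do not pair the libraries: deviations of same-numbered libraries correlated at 0.062, -0.048 and -0.028, and the descriptions give other numbers to replicates 2 and 3.

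Among named genes, 11 turned sign under at least 1 setting, in 19 settings in all, with reported changes from -0.65 for Lyplal1, -0.44 for Gm20507 and -0.41 for Rnase12 to 0.22 for Camp. Ndrg3 stood at 0.039 with array weights and at -0.36 to 0.062 when 1 library was left out. Rnase12 stood at 0.44 and -0.89 to 0.475, and Gm20507 at 0.21 and -0.81 to 0.27. Camp stood at -0.25 with a pseudocount of 0.1, at -1.10 with voom and at -0.19 to 0.995 when 1 library was left out. In the same fits Xist ran from -0.074 to 0.056, mt-Co3 from -0.067 to 0.019, Ftl1 from -0.011 to 0.11, Mpo from -0.064 to 0.028, Nus1 from -0.25 to 0.0032, Slc25a22 from -0.22 to 0.025 and Lyplal1 from -0.999 to 0.027. The cause was not tested. Of 624 list medians under an alternative, 47 moved by more than the spread between replicates.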

Other observations

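Of 7 eosinophil markers 6 were tested, of which 5 were higher, against 50.6% of all tested genes. Among these 6 markers 1 lay above all controls, against 7.3% of all tested genes. That gene, the eosinophil ribonuclease gene Ear6, stood at 0.2498, 0.7895 and 0.609 RPKM in controls and 8.83, 2.10 and 1.42 with miR184. Prg2, the major basic protein gene, stood at 110.1, 157 and 20.6 RPKM in controls 1 to 3 and at 179.8, 36.9 and 104 with miR184 1 to 3. Epx, the eosinophil peroxidase gene, stood at 3.14, 3.13 and 0.379 RPKM in controls 1 to 3 and at 8.84, 0.855 and 6.02 with miR184 1 to 3. The summed markers ranged over 27.3 to 179 RPKM in controls and 55.2 to 218 with miR184, and control 3 was the lowest library in Prg2 and Epx.

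Long intergenic noncoding RNAs were lower in 68 of 109 tested genes, with a median log2 change of -0.063, and in 66 of 109 without miR184 3, with a median of -0.031. Among all tested genes 5123 of 10372 were lower. Malat1, an abundant nuclear RNA, stood at 230.4, 291 and 249 RPKM in controls 1 to 3 and at 255, 186 and 204 with miR184 1 to 3, with overlapping groups. The entries that can hold ribosomal RNA, Rn18s-rs5 and Gm26917, stood at log2 changes of 0.22 ± 0.10 and 0.35 ± 0.095, and Gm26917 was above all controls in every miR184 library.

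Short transcripts separated the controls. In the bin of the shortest transcripts (341 to 1144 bases), control 1 deviated by 0.084 from the mean of the 6 libraries and control 3 by -0.061, while the median log2 change of the bin was -0.018.

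In miR184 3, 35 tested genes were listed at 0, against 3 to 5 in the other libraries. Lyplal1 had 171 to 263 reads in each of those and was listed at 0 in miR184 3, and Rnase12 had 73 to 133 reads and was listed at 0. Rps12, a ribosomal protein gene, stood at 9.47, 5.67 and 3.97 RPKM in controls 1 to 3 and at 13.5, 0.321 and 0 with miR184 1 to 3. Xist was at 9.69 to 11.8 RPKM and the Y-linked genes Ddx3y, Eif2s3y, Kdm5d and Uty at no more than 0.0099 in every library.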
